A study of Capra hircus with 9 samples.

Results

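Cholesterol synthesis was followed in the goat uterus through 7 genes: HMGCS1, MVD, FDFT1, SQLE, LSS and DHCR7, which encode enzymes of the pathway, and SREBF2, which encodes its main transcription factor. They were chosen by name, as the rows of the deposited gene count table that carry these symbols; all 7 were found among 25671 gene rows, and all 7 passed the filter on low counts. None of the 7 acts in lipoprotein uptake, so they are called synthesis enzymes and SREBF2 here. Messenger RNA was sequenced from uteri of Liaoning Cashmere goats (Capra hircus), a fibre breed, at days 6, 16 and 19, each with 3 libraries. In the labels these days are peri-implantation, and the event from which they are counted is not named. The groups differ in the labels only by day, and no treatment, genotype or age is given. The labels disagree on the tissue: uterus stands in the tissue field, endometrial epithelium in the series title, and testis in the protocol for treatment. Whether the 3 libraries of a day represent different animals is not stated. The p-values therefore describe the spread among these libraries, part of which may be technical.

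Cells build cholesterol from acetyl-CoA: the mevalonate branch makes isoprenoid units, these are joined to squalene, and squalene is oxidised, closed into the ring system of lanosterol and trimmed to cholesterol. The transcription factor SREBP2, the product of SREBF2, is held in the endoplasmic reticulum by SCAP and INSIG proteins while sterol is plentiful. When sterol is scarce it is cut free by a pair of proteases and raises transcription of most enzymes of the pathway. In the ruminant uterus the days around implantation are those in which the conceptus elongates and attaches, and the lining supplies it with lipid among other secreted material.

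The libraries held 8712751 to 11074693 counts each. Values are given as CPM, each count scaled to a common library total, after TMM (trimmed mean of M-values) scaling between libraries. CPM is not corrected for transcript length, so levels are compared between days within a gene and not between genes. Smooth muscle and stromal markers were abundant, with summed levels of 10900 to 53960 and 19160 to 33300 CPM per library, and those of 14 epithelial markers summed to 1114 to 2061 CPM. Testis germ cell markers summed to 0.291 to 2.80 CPM, with SYCP3 and TNP1 at 0 counts in every library. By these markers the samples held mixed uterine tissue. In bulk samples of this kind, fewer cells of a type and less RNA per cell cannot be told apart. Day 19 replicate 1 stood apart from the other libraries of its day in many genes of this pathway, and counts are therefore given with and without it.

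By their mean CPM, 5 of the 6 enzymes were lowest at day 16 with and without day 19 replicate 1, and 3 of the 7 genes passed the test there. DHCR7 was lowest at day 16 only with that library: its other day 19 libraries, at 4.19 and 3.39 CPM, lay below all 3 day 16 libraries. Against day 6, SQLE fell 2.74-fold, LSS 2.59-fold and HMGCS1 1.59-fold. HMGCS1 rose 1.87-fold at day 19 against day 16, while SQLE at day 19 was 2.27-fold below its level at day 6. SREBF2 passed the test in no comparison. Calls used edgeR's quasi-likelihood test over 16098 genes, with a threshold of 0.05 on the Benjamini-Hochberg adjusted p.

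**Figure D1:**
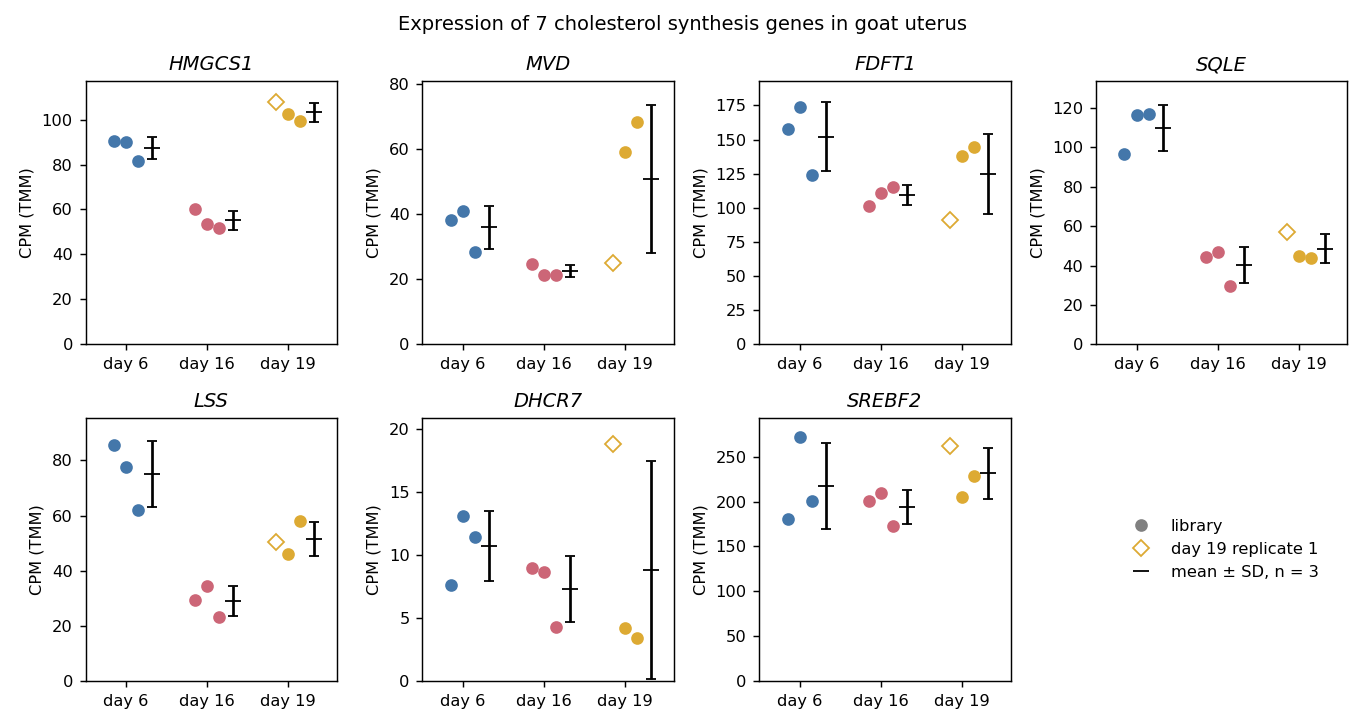
CPM (linear axes from 0) of each of the 7 genes by day; points are libraries, the open diamond is day 19 replicate 1, and bars give the mean ± SD (n = 3). The 3 day 16 libraries lie below the 3 day 6 libraries for HMGCS1, MVD, FDFT1, SQLE and LSS, and the day 19 diamond lies far from the other day 19 points for MVD, FDFT1 and DHCR7.

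HMGCS1 (gene ID 102176561), the cytosolic HMG-CoA synthase, makes HMG-CoA, the precursor of mevalonate. It had 90.6, 90.0 and 81.6 CPM in the day 6 libraries, 60.0, 53.5 and 51.8 CPM in the day 16 libraries and 108, 103 and 99.4 CPM in the day 19 libraries. The day 16 libraries were lowest, the day 19 libraries highest, and no day overlapped another. Between day 16 and day 6 it fell by 0.66 on the log2 scale (SE 0.14; edgeR quasi-likelihood with Benjamini-Hochberg adjustment, adjusted p = 0.0191). Between day 19 and day 16 it rose by 0.91 on the log2 scale (SE 0.14, edgeR adjusted p = 0.0377). The first call was lost without any 1 of the 6 libraries of days 6 and 16, with edgeR adjusted p of 0.0504 to 0.0893. The second was lost without any 1 library other than day 19 replicate 1, with edgeR adjusted p of 0.0748 to 0.175, and was 0.000301 without that library. It was also lost in a fit of only days 19 and 16 (edgeR adjusted p = 0.161). Day 19 against day 6 gave a log2 fold change of 0.24 (SE 0.14, edgeR adjusted p = 0.239).

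MVD (gene ID 102169040), mevalonate diphosphate decarboxylase, makes the isoprenoid building block at the end of the mevalonate branch. It had 38.3, 41.0 and 28.4 CPM at day 6, 24.6, 21.3 and 21.4 CPM at day 16 and 25.1, 59.2 and 68.3 CPM at day 19. The day 16 libraries were the lowest 3, and day 19 replicate 1 lay beside them rather than beside the other day 19 libraries. MVD passed in none of the 3 comparisons: the log2 fold change was -0.68 (SE 0.33, edgeR adjusted p = 0.293) for day 16 against day 6, 1.18 (SE 0.34, adjusted p = 0.0958) for day 19 against day 16 and 0.50 (SE 0.33, adjusted p = 0.288) for day 19 against day 6. Without day 19 replicate 1 it passed in all 3, with values of -0.68 (edgeR adjusted p = 0.0159), 1.52 (0.000177) and 0.84 (0.0028).

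FDFT1 (gene ID 102173564), squalene synthase, joins farnesyl units and so takes the first step that leads only to sterols. It had 158, 174 and 124 CPM at day 6, 102, 111 and 116 CPM at day 16 and 91.0, 138 and 145 CPM at day 19. Day 16 lay below day 6 without overlap, and the day 19 libraries spanned the day 16 range on both sides. The log2 fold change was -0.48 (SE 0.21, edgeR adjusted p = 0.24) for day 16 against day 6, 0.19 (SE 0.21, adjusted p = 0.59) for day 19 against day 16 and -0.29 (SE 0.21, adjusted p = 0.342) for day 19 against day 6. Without day 19 replicate 1 the first of these passed (edgeR adjusted p = 0.0359), although that library belongs to neither day and entered it through the shared estimate of spread, the filter and the scaling.

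SQLE (gene ID 102187506), squalene epoxidase, adds the oxygen that precedes ring closure and is a rate-limiting step of the sterol branch. It had 96.4, 116 and 117 CPM at day 6, 44.3, 46.7 and 29.6 CPM at day 16 and 57.0, 44.6 and 43.9 CPM at day 19. All 6 later libraries lay below all 3 day 6 libraries, and days 16 and 19 overlapped. SQLE averaged 40.2 ± 9.28 CPM at day 16 against 109.9 ± 11.7 CPM at day 6 (SD, n = 3 each), a fall of 1.45 on the log2 scale (SE 0.21, edgeR adjusted p = 0.0029). At day 19 it averaged 48.5 ± 7.37 CPM (SD, n = 3) and fell by 1.18 on the log2 scale relative to day 6 (SE 0.21, edgeR adjusted p = 0.00469). Both calls held without each of the 9 libraries in turn, and the highest edgeR adjusted p were 0.0189 and 0.024. Day 19 against day 16 gave 0.27 (SE 0.21, edgeR adjusted p = 0.424).

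LSS (gene ID 102175810), lanosterol synthase, closes the sterol rings. It had 85.5, 77.5 and 62.1 CPM at day 6, 29.4, 34.3 and 23.4 CPM at day 16 and 50.4, 46.1 and 58.2 CPM at day 19. The days did not overlap, with day 6 highest, day 19 between and day 16 lowest. LSS averaged 29.0 ± 5.48 CPM at day 16 against 75.0 ± 11.9 CPM at day 6 (SD, n = 3 each), a fall of 1.37 on the log2 scale (SE 0.20, edgeR adjusted p = 0.00304), and the highest edgeR adjusted p without 1 library was 0.0187. Day 19 against day 16 gave 0.83 (SE 0.20, edgeR adjusted p = 0.0713), which passed without day 19 replicate 1 (0.86; 0.00629). Day 19 against day 6 gave -0.54 (SE 0.20; edgeR adjusted p = 0.0787; 0.0516 without day 19 replicate 1).

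DHCR7 (gene ID 102171848), the final reductase of a branch of the pathway, was measured on few reads, with 32 to 193 counts per library. It had 7.61, 13.1 and 11.4 CPM at day 6, 8.95, 8.66 and 4.24 CPM at day 16 and 18.8, 4.19 and 3.39 CPM at day 19. The days overlapped throughout, and the highest and lowest of all 9 values both came from day 19. The log2 fold changes were -0.56 (SE 0.61, edgeR adjusted p = 0.715) for day 16 against day 6, 0.28 (SE 0.61, adjusted p = 0.791) for day 19 against day 16 and -0.28 (SE 0.61, adjusted p = 0.759) for day 19 against day 6. Day 19 replicate 1 set the sign of the second: without it the values were -0.92 (edgeR adjusted p = 0.077) against day 16 and -1.48 (0.00915) against day 6.

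SREBF2 (gene ID 102189018) had 181, 272 and 200.5 CPM at day 6, 201, 209 and 172 CPM at day 16 and 262, 205 and 228 CPM at day 19. The 3 days overlapped. The log2 fold changes were -0.17 (SE 0.20, edgeR adjusted p = 0.75) for day 16 against day 6, 0.25 (SE 0.20, adjusted p = 0.436) for day 19 against day 16 and 0.09 (SE 0.20, adjusted p = 0.774) for day 19 against day 6. SREBF2 was called under none of the alternatives tried, and its transcript level does not measure how much of its protein was cleaved.

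Read against all genes, 3 of the 7 fell and 0 rose at day 16 against day 6, where 3.74% of tested genes were lower and 5.12% higher. Their median log2 fold change was -0.66, against 0.00 over all genes tested. Of the 7, 1 rose and 0 fell at day 19 against day 16, where 0.516% of genes were higher and 0.683% lower. The median was 0.28 for the 7 genes and 0.01 for all genes. In the comparison of day 19 with day 6, 1 of the 7 fell and 0 rose, where 10.2% of genes were lower and 12.7% higher. The medians were -0.28 and 0.02. With 1 gene of 7, the last share was near that over all genes. The 3 comparisons share libraries and are not independent of each other. The 7 genes were chosen with earlier results of these data known, so these shares are a description and not an independent test.

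Without day 19 replicate 1 more genes passed in all 3 comparisons, among the 7 as among all genes. Then 5 of the 7 fell and 0 rose at day 16 against day 6, where 9.67% of genes were lower and 10.7% higher. HMGCS1, MVD and LSS, 3 of the 7, rose and 0 fell at day 19 against day 16, where 21.6% were higher and 23.1% lower. MVD rose and SQLE and DHCR7 fell at day 19 against day 6, where 27.2% were higher and 27% lower.

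Marker levels of several cell types differed between the same days. At day 16 against day 6, 3.74% of all tested genes were lower and 5.12% higher. The 12 cell cycle markers summed to 137 to 238 CPM at day 6, 85.0 to 95.2 CPM at day 16 and 107 to 133 CPM at day 19, and 4 of 12 fell at day 16 against day 6. The 10 stromal markers summed to 30080 to 33300 CPM at day 6, 19160 to 23640 CPM at day 16 and 20640 to 30160 CPM at day 19, with 0 of 10 called at day 16 against day 6 by edgeR (3 at an unadjusted p under 0.05, 2 called by DESeq2 and 3 by voom). That sum was led by the collagen genes COL3A1 and COL1A2, and the median log2 fold change of the 10 was -0.08. The 8 endothelial markers found summed to 854.8 to 1075 CPM at day 6, 1120 to 1407 CPM at day 16 and 693 to 783 CPM at day 19, highest at day 16 without overlap. At day 16 against day 6 their median log2 fold change was 0.16, and 0 of 8 were called by edgeR (2 at an unadjusted p under 0.05, 0 called by DESeq2 and 2 by voom). At day 19 against day 16 it was -0.73, again with 0 called by edgeR (6 at an unadjusted p under 0.05, 2 called by DESeq2 and 6 by voom). Over all 16098 genes tested, 3403 had an unadjusted p under 0.05 and voom called 3811 at day 16 against day 6. At day 19 against day 16 these counts were 3946 and 7354. Of 25671 genes, DESeq2 called 2235 at day 16 against day 6 and 1680 at day 19 against day 16. The 14 epithelial markers found summed to 1114 to 1525 CPM at day 6, 1589 to 1658 CPM at day 16 and 1198 to 2061 CPM at day 19, and 3 rose and 1 fell at day 16 against day 6. The 9 macrophage markers summed to 321 to 731 CPM at day 6, 549 to 835 CPM at day 16 and 976 to 1566 CPM at day 19. Of 9 trophoblast markers listed, 4 were found. Their sum was 12.3 to 17.5 CPM at day 6, 39.7 to 102 CPM at day 16 and 106 to 127 CPM at day 19. It mostly follows 1 gene, PLAC8, with a mean of 65.8 CPM, while the next, PAG1, had 3.32 CPM. Only 2 of the 4 were tested, and PLAC8 alone was called, higher at days 16 and 19 against day 6. Without day 19 replicate 1, 1 was higher and 1 lower at day 19 against day 6. At day 19 against day 16, 0 were then higher and 1 lower. The sums for smooth muscle and for T and NK lymphocytes overlapped between days 16 and 6. The part these cell types played in the levels of the 7 genes was not tested. STAR, CYP11A1 and 3 other markers of steroid-producing cells, which consume cholesterol, summed to 0.843 to 5.38 CPM per library.

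The rest of the pathway was taken from a list of 15 other synthesis enzymes, all of them tested. At day 16 against day 6, 2 fell and 0 rose, where 3.74% of all tested genes were lower and 5.12% higher. The median log2 fold change of the 15 was -0.29. ACAT2, the cytosolic thiolase that makes acetoacetyl-CoA for HMGCS1, fell by 1.04 (SE 0.22, edgeR adjusted p = 0.0163). TM7SF2, a sterol reductase, fell by 1.69 (SE 0.41, adjusted p = 0.0316). Each was lost without some libraries of days 6 and 16: ACAT2 without any of them but day 16 replicate 3 (edgeR adjusted p of 0.0505 to 0.0775), and TM7SF2 without any 1 of the 6 (0.0793 to 0.118). Without day 19 replicate 1, 3 of the 15 fell and 0 rose, where 9.67% of all tested genes were lower and 10.7% higher.

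Of the 15, 0 rose or fell by edgeR at day 19 against day 16, with a median of 0.44 (5 at an unadjusted p under 0.05, 4 called by DESeq2 and 8 by voom). Over all 16098 genes tested, 3946 had an unadjusted p under 0.05 there and voom called 7354. DESeq2 called 1680 of 25671 genes. Leaving out day 19 replicate 1, 8 rose and 2 fell, where 21.6% of all tested genes were higher and 23.1% lower. Day 19 against day 6 gave 3 that rose and 2 that fell, with a median of -0.06. Over all tested genes, 12.7% were higher and 10.2% lower there. The 3 that rose were MVK, mevalonate kinase (0.86, SE 0.22, edgeR adjusted p = 0.022), MSMO1, which oxidises sterol methyl groups (0.65, SE 0.16, adjusted p = 0.0166), and ACAT1, the mitochondrial thiolase (0.74, SE 0.23, adjusted p = 0.0454). The 2 that fell were TM7SF2 (-1.63, SE 0.41, edgeR adjusted p = 0.0191) and HSD17B7, a sterol ketone reductase (-0.86, SE 0.27, adjusted p = 0.0451). Without 1 library these calls were lost as follows: MVK without day 6 replicates 1 or 3 or day 19 replicates 2 or 3 (edgeR adjusted p of 0.0674 to 0.0956), MSMO1 without day 6 replicates 1 or 3 or day 19 replicate 2 (0.0625 to 0.0792), and TM7SF2 without day 6 replicates 1 or 2 (0.0538 and 0.0555). ACAT1 and HSD17B7 were lost without any 1 library other than day 19 replicate 1 (0.0648 to 0.151 and 0.0585 to 0.177). A fit of only days 19 and 6 called 0 of these 5 (edgeR adjusted p of 0.0536 to 0.105), and without a filter on low counts ACAT1 (0.0558) and HSD17B7 (0.0648) were lost, as was ACAT1 with upper quartile scaling (0.0653). Without day 19 replicate 1, 4 of the 15 rose and 4 fell at day 19 against day 6. Over all tested genes, 27.2% were then higher and 27% lower.

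**Figure D2:**
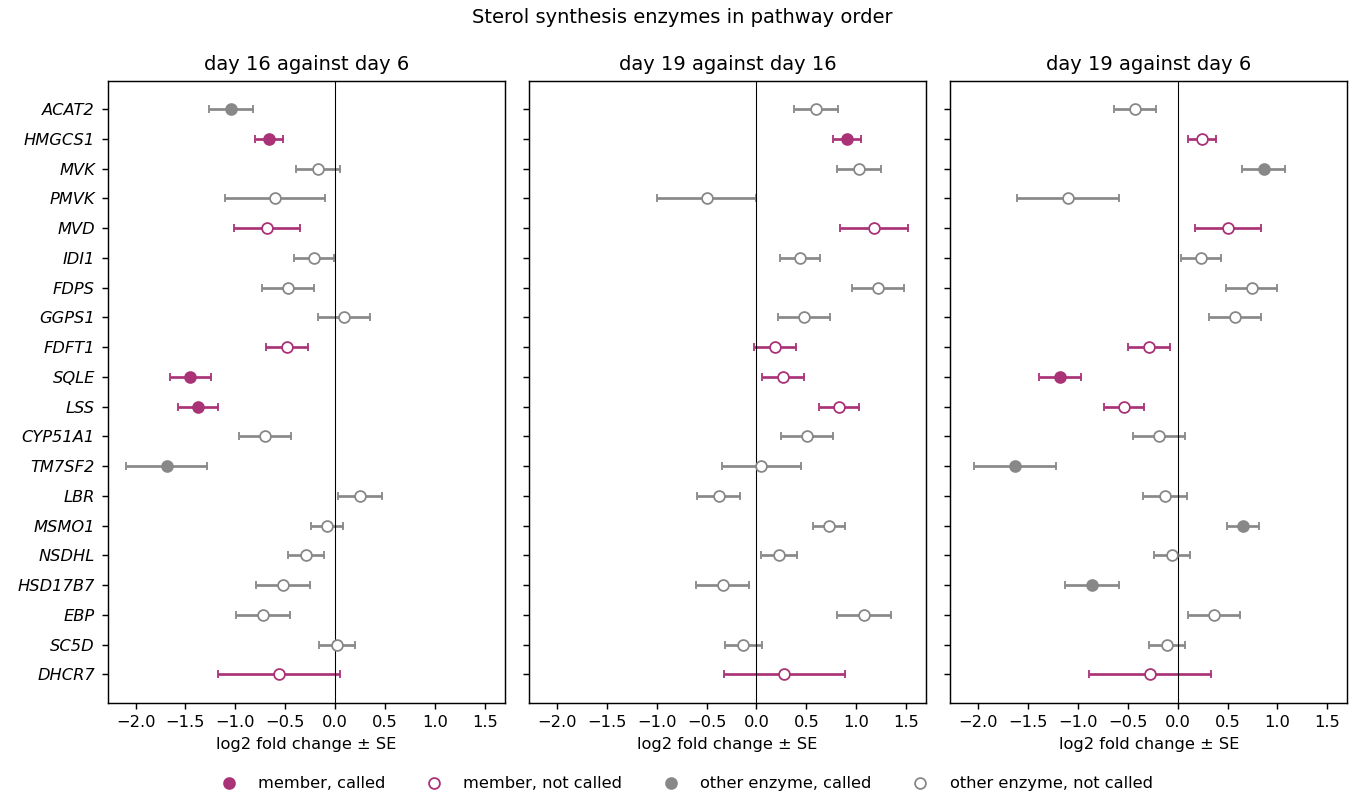
Log2 fold changes (bars: SE) of the sterol synthesis enzymes in pathway order from top to bottom, with a panel for each comparison. Filled symbols passed the test and purple symbols are the enzymes among the 7 genes. The mitochondrial thiolase ACAT1 is not drawn. In the left panel most points lie left of 0, with SQLE at -1.45, LSS at -1.37 and TM7SF2 at -1.69 farthest, and in the right panel points lie on both sides.

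Among the 9638 genes considered, with a mean log2 CPM of at least 3, BCL2L1, a regulator of apoptosis, had the profile most like the mean of the 7 genes over the 9 libraries (Pearson r = 0.959, a description without a test). It had 158, 164 and 141 CPM at day 6, 103, 113 and 86.2 CPM at day 16 and 163, 127 and 131 CPM at day 19, so day 16 lay below both other days without overlap. The next were CDC42, a small GTPase (r = 0.95), LRFN3, SUSD3 and ATP6V1C2, a subunit of the vacuolar proton pump (0.933 each), and RNF10 (0.921). Of the other listed synthesis enzymes in this ranking ACAT2 came first, at rank 121 (r = 0.781). Rows named by locus, IDI1 and CYP51A1 among them, were left out of the ranking, and HSD17B7 was not in it. The points share day, library and depth.

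The 7 genes did not all vary together. SQLE and LSS had r = 0.84 over the 9 libraries but 0.34 once each day's mean was removed. MVD and FDFT1 had r = 0.69, and 0.91 within days. MVD and DHCR7 had r = -0.49, and -0.80 within days. At day 19, replicate 1 was the lowest for MVD (25.1 CPM against 59.2 and 68.3) and the highest for DHCR7 (18.8 CPM against 4.19 and 3.39). At day 6, replicate 2 was the highest for both. SQLE and DHCR7 had r = 0.59, and 0.82 within days. The share of each day in the within-day values was not computed. At day 16, replicate 3 was the lowest library for SQLE (29.6 CPM), LSS (23.4 CPM) and DHCR7 (4.24 CPM). At day 19, replicate 1 differed from the mean of replicates 2 and 3 in several genes. The log2 difference was -1.34 for MVD, -0.63 for FDFT1, 2.26 for DHCR7 and 0.36 for SQLE. For HMGCS1, SREBF2 and LSS the difference was 0.09, 0.28 and -0.04. Other genes of sterol metabolism split the same library from its day in both directions: SCD, a fatty acid desaturase, stood higher by 4.28, STARD4, a sterol carrier, by 3.08, and INSIG1 by 1.09, and TM7SF2 and FDPS gave -1.88 and -0.87.

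**Figure D3:**
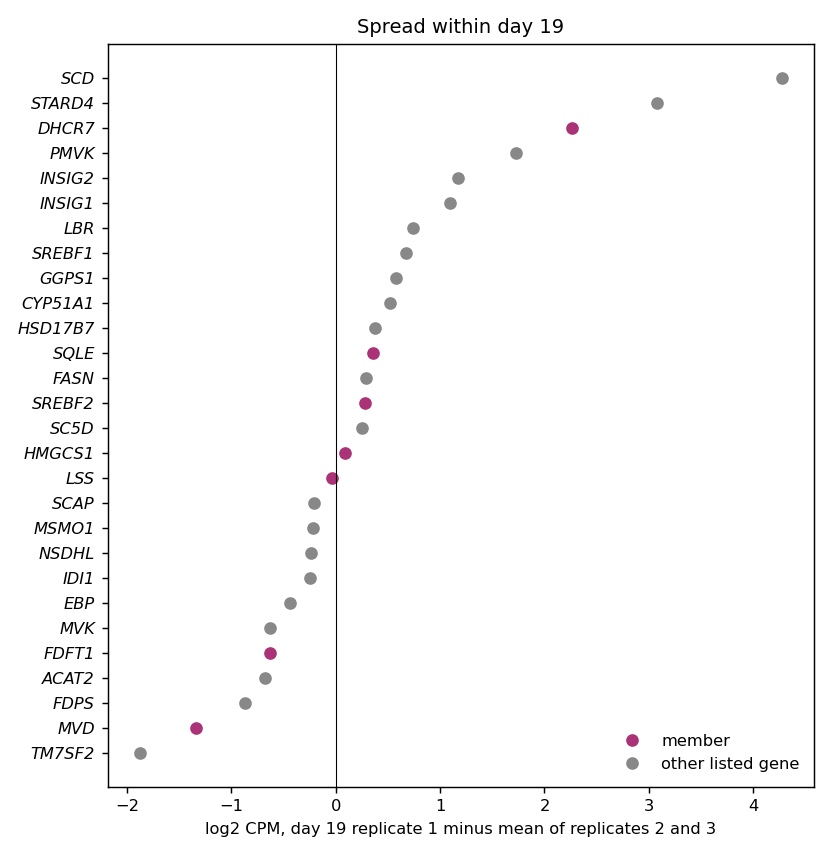
Log2 CPM of day 19 replicate 1 minus the mean of day 19 replicates 2 and 3 for the 7 genes (purple) and other listed genes (grey), sorted by value. DHCR7 at 2.26 and MVD at -1.34 lie toward opposite ends, and HMGCS1 and LSS lie near 0.

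Ratios within a library do not depend on scaling between libraries, and those to SQLE were computed after the values had been seen, as a description without a test. The log2 ratio of HMGCS1 to SQLE was -0.09, -0.37 and -0.52 at day 6, 0.44, 0.2 and 0.81 at day 16 and 0.92, 1.2 and 1.18 at day 19. It was thus lowest at day 6 and highest at day 19 with no overlap between days. The ratio of SREBF2 to SQLE averaged 0.97 ± 0.23 in the day 6 libraries, 2.29 ± 0.21 in those of day 16 and 2.26 ± 0.10 in those of day 19 (SD, n = 3 each), so days 16 and 19 lay together above day 6. The ratio of LSS to SQLE averaged -0.56 ± 0.37 in the day 6 libraries, -0.46 ± 0.13 in those of day 16 and 0.09 ± 0.29 in those of day 19 (SD, n = 3 each), with day 19 above day 16 without overlap. These ratios show unequal change between genes and not which gene of a pair changed.

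**Figure D4:**
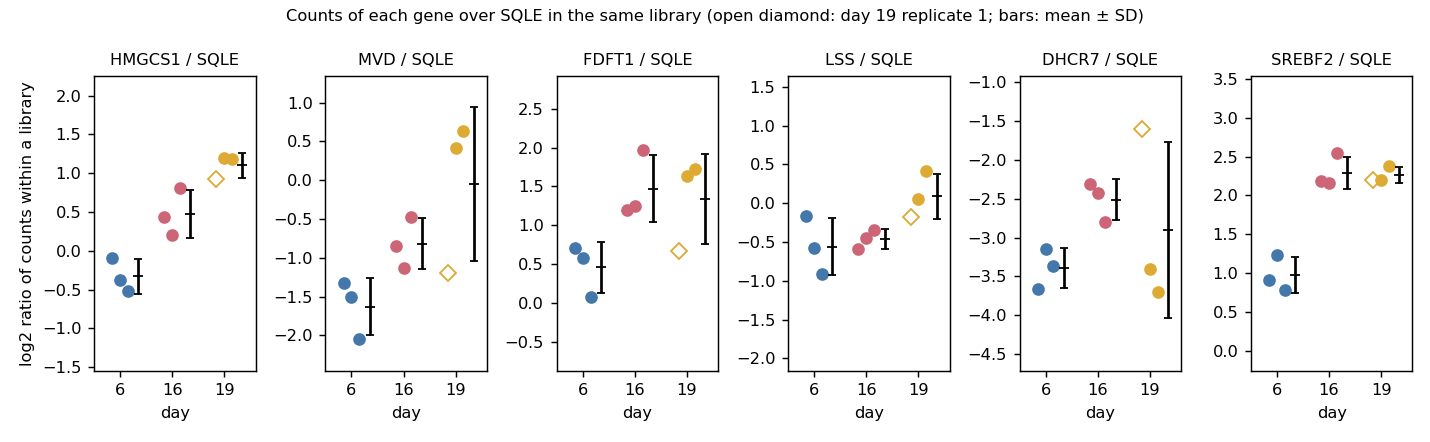
Log2 ratio of each gene's counts to those of SQLE in the same library, by day, with the same span on every vertical axis; points are libraries, the open diamond is day 19 replicate 1, and bars give the mean ± SD (n = 3). The HMGCS1 ratio stands higher at each later day, and the SREBF2 ratio is near 2.29 at day 16 and 2.26 at day 19 against 0.97 at day 6.

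The machinery that regulates SREBP was represented by 14 genes besides SREBF2. At day 16 against day 6, 1 fell (SYVN1) and 0 rose, where 3.74% of all tested genes were lower and 5.12% higher. Between day 19 and day 16, 1 fell (ERLIN2) and 0 rose, where 0.683% were lower and 0.516% higher. Between day 19 and day 6, 4 fell and 1 rose, where 10.2% were lower and 12.7% higher. MBTPS1, the first protease that cuts SREBP, fell by 0.84 (SE 0.16, edgeR adjusted p = 0.00682), and MBTPS2, the second, fell by 0.99 (SE 0.22; 0.0111; lost at 0.0517 without day 6 replicate 3). SYVN1, a ubiquitin ligase of the endoplasmic reticulum, fell by 1.16 (SE 0.21, adjusted p = 0.00518), and ERLIN2, a membrane protein of the endoplasmic reticulum, fell by 1.12 (SE 0.26; 0.0134; lost at 0.0529 without day 6 replicate 3). NR1H2, the sterol sensor LXR beta, rose by 0.99 (SE 0.21, edgeR adjusted p = 0.011). The other calls of SYVN1 (-0.79 for day 16 against day 6, edgeR adjusted p = 0.0492) and ERLIN2 (-1.38 for day 19 against day 16, 0.0468) were lost without most single libraries (0.0675 to 0.158 without any but day 19 replicates 1 or 3, and 0.0791 to 0.175 without any but day 19 replicate 1). The first was also lost without a filter on low counts (edgeR adjusted p = 0.0615), and the second in a fit of only days 19 and 16 (0.162). Without day 19 replicate 1, more of the 14 passed. At day 16 against day 6, 5 then fell and 1 rose, where 9.67% of all tested genes were lower and 10.7% higher. Day 19 against day 16 gave 6 that fell and 2 that rose, where 23.1% were lower and 21.6% higher. Day 19 against day 6 gave 5 that fell and 1 that rose, where 27% were lower and 27.2% higher.

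INSIG1, which holds SREBP back, had 23.6, 25.9 and 19.2 CPM at day 6, 25.8, 16.5 and 18.7 CPM at day 16 and 24.8, 11.5 and 11.5 CPM at day 19, and SREBF1, the paralogue that drives fatty acid genes, had 87.9, 109.4 and 83.1 CPM at day 6, 69.4, 62.1 and 66.9 CPM at day 16 and 119.7, 65.8 and 85.5 CPM at day 19. INSIG1 overlapped between all days, and SREBF1 lay lower at day 16 than at day 6 without overlap. Neither passed in any comparison with all 9 libraries. Without day 19 replicate 1, INSIG1 passed at day 19 against day 16 (-0.81; edgeR adjusted p = 0.0166) and against day 6 (-0.98; 0.00515), and SREBF1 at day 16 against day 6 (-0.50; 0.0341).

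Of 14 genes of cholesterol uptake and transport within cells, 1 fell and 0 rose at day 16 against day 6. Of all tested genes, 3.74% were lower and 5.12% higher there. Without day 19 replicate 1, 1 fell and 1 rose, where 9.67% were lower and 10.7% higher. Between days 19 and 16, 0 were called by edgeR (3 at an unadjusted p under 0.05, 3 called by DESeq2 and 9 by voom). Over all 16098 genes tested, 3946 had an unadjusted p under 0.05 there and voom called 7354. DESeq2 called 1680 of 25671 genes. Without day 19 replicate 1, 2 rose and 7 fell, where 21.6% of all tested genes were higher and 23.1% lower. Day 19 against day 6 gave 4 that fell and 1 that rose, where 10.2% were lower and 12.7% higher. Without day 19 replicate 1, 7 fell and 2 rose, where 27% were lower and 27.2% higher. LRP8, a lipoprotein receptor, fell at both later days, to 5.12 ± 1.88 CPM at day 16 and 3.90 ± 2.74 CPM at day 19, against 32 ± 5.19 CPM at day 6 (SD, n = 3 each; edgeR adjusted p = 0.00715 and 0.00224). Its log2 fold change at day 19 against day 6 was -3.03, and -3.75 without day 19 replicate 1. LRP2, or megalin, averaged 36.3 ± 21.8 CPM at day 19 against 345.9 ± 30.6 CPM at day 6 (SD, n = 3 each), a fall of 3.25 on the log2 scale (SE 0.60, edgeR adjusted p = 0.00526).

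Among the other uptake genes at day 19 against day 6, TSPO, a mitochondrial protein that binds cholesterol, rose by 1.23 (SE 0.25, edgeR adjusted p = 0.00831). The calls of SCARB1, the HDL receptor (-1.0, SE 0.26, adjusted p = 0.0213) and VLDLR, a lipoprotein receptor (-1.14, SE 0.33, adjusted p = 0.0325), were lost without single libraries. Those were day 6 replicates 1 or 3 or day 19 replicate 3 for SCARB1 (edgeR adjusted p of 0.0586 to 0.0743), and these 3, day 16 replicate 3 or day 19 replicate 2 for VLDLR (0.0525 to 0.118). VLDLR was also lost in a fit of only days 19 and 6 (0.0701).

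Storage, export and oxidation of cholesterol were represented by 13 tested genes. SOAT1, which esterifies cholesterol for storage, rose at both later days. It had 11.1, 8.55 and 11.7 CPM at day 6, 59.2, 48.6 and 38.7 CPM at day 16 and 35.7, 30.1 and 18.0 CPM at day 19. The 3 days did not overlap. The log2 fold change was 2.22 (SE 0.29, edgeR adjusted p = 0.00175) for day 16 against day 6 and 1.41 (SE 0.29, adjusted p = 0.00818) for day 19 against day 6, and neither call was lost without any 1 library. SOAT1 was the 1 of 13 called at day 16 against day 6, where 5.12% of all tested genes were higher and 3.74% lower. Without day 19 replicate 1, 1 rose and 3 fell, where 10.7% were higher and 9.67% lower. Between days 19 and 16, 0 were called by edgeR (5 at an unadjusted p under 0.05, 3 called by DESeq2 and 6 by voom). Over all 16098 genes tested, 3946 had an unadjusted p under 0.05 there and voom called 7354. DESeq2 called 1680 of 25671 genes. Without day 19 replicate 1, 2 rose and 4 fell, where 21.6% of all tested genes were higher and 23.1% lower.

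At day 19 against day 6, 3 of the 13 rose and 2 fell, where 12.7% of all tested genes were higher and 10.2% lower. Without day 19 replicate 1, 4 rose and 3 fell, where 27.2% were higher and 27% lower. CYP7B1, an oxysterol hydroxylase, fell by 2.89 (SE 0.60, edgeR adjusted p = 0.0093), and its log2 fold change was -3.89 without day 19 replicate 1. It was measured on few reads, with 53, 34 and 37 counts at day 6 and 11, 3 and 2 counts at day 19. CH25H, which oxidises cholesterol to a signalling oxysterol, rose by 1.13 (SE 0.29, adjusted p = 0.0206). Its adjusted p in edgeR was 0.0565 if day 6 replicate 2 was left out and 0.0715 if day 19 replicate 2 was. LCAT, which esterifies cholesterol in lipoproteins, rose by 0.80 (SE 0.24; 0.0373; lost without any 1 library other than day 19 replicate 1, 0.0576 to 0.133). ABCA1, the exporter of cholesterol to apolipoproteins, had 624, 455 and 785 CPM at day 6, 291, 336 and 313 CPM at day 16 and 244, 32.2 and 31.2 CPM at day 19. The days did not overlap, and replicate 1 held most of the day 19 signal. Its fall by 2.6 at day 19 against day 6 (SE 0.73, edgeR adjusted p = 0.0306) was lost without any 1 library other than day 16 replicate 2 or day 19 replicate 1 (0.0504 to 0.0875), and without the last it was -4.28. A fit of only days 19 and 6 lost CH25H (edgeR adjusted p = 0.0604), LCAT (0.0944) and ABCA1 (0.0847), and upper quartile scaling lost LCAT (0.0512).

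Of 15 fatty acid genes under SREBP control, 2 fell and 0 rose at day 16 against day 6. Of all tested genes, 3.74% were lower and 5.12% higher there. Without day 19 replicate 1, 6 fell and 0 rose, where 9.67% were lower and 10.7% higher. Between days 19 and 16, 0 were called by edgeR (4 at an unadjusted p under 0.05, 2 called by DESeq2 and 6 by voom). Over all 16098 genes tested, 3946 had an unadjusted p under 0.05 there and voom called 7354. DESeq2 called 1680 of 25671 genes. Without day 19 replicate 1, 6 fell and 0 rose, where 23.1% of all tested genes were lower and 21.6% higher. By day 19, 7 fell relative to day 6, FADS1 among them, and 0 rose, where 10.2% were lower and 12.7% higher. Without day 19 replicate 1, 11 fell and 0 rose, where 27% were lower and 27.2% higher. ELOVL5, an elongase, averaged 38.8 ± 4.51 CPM at day 16 against 124 ± 19.8 CPM at day 6 (SD, n = 3 each), a fall of 1.68 (SE 0.25, edgeR adjusted p = 0.00284), and fell by 1.37 at day 19 against day 6 (SE 0.24, adjusted p = 0.00446). SCD5, a desaturase, fell by 0.84 at day 16 (SE 0.17; 0.0144; lost without day 6 replicates 2 or 3 or day 16 replicates 1 or 3, 0.0579 to 0.0727) and by 1.30 at day 19 against day 6 (SE 0.17, adjusted p = 0.000979). At day 19 against day 6, FASN, fatty acid synthase, fell by 1.55 (SE 0.34, edgeR adjusted p = 0.0118), FADS2 fell by 1.49 (SE 0.31, adjusted p = 0.00867) and ACSL1 by 1.04 (SE 0.22, adjusted p = 0.00955). FADS1 fell by 1.14 (SE 0.27, edgeR adjusted p = 0.0169), a call lost without day 6 replicate 2 or day 19 replicate 3 (at most 0.0624). ACACA, acetyl-CoA carboxylase, fell by 1.16 (SE 0.27, adjusted p = 0.0148), a call that was lost without day 6 replicates 1 or 2 or day 19 replicates 2 or 3 (0.0502 to 0.0523) and in a fit of only days 19 and 6 (0.0502).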

How the data were processed

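Per the labels' protocols, poly(A) RNA was fragmented and made into Ion Torrent libraries. Alignment, counting, strand use, build and annotation: not given in the sources used here. The authors deposited unnormalized whole-number counts per gene in 1 table, 1 column per library; 0 columns of other samples were present. The 7 gene identifiers paired with the same symbols in the RefSeq gene table of assembly ARS1.2; no coordinates were used. IDI1, CYP51A1, CYP27A1, CYP7B1 and CYP46A1 were rows named by locus, matched by the symbol of the deposited similarity annotation. ERG28 is not analysed here, and some genes of these pathways are not reported here and enter no list count or ranking.

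The test was that of edgeR 4.0.16 (R 4.3.3), with TMM scaling, filterByExpr on the day, and a robust quasi-likelihood fit of all 9 libraries with day as its term (common biological coefficient of variation 0.318), with Benjamini-Hochberg adjustment over 16098 genes. The SE of a log2 fold change is its size over the root of its F statistic. Log2 CPM used a prior count of 2.

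The 7 genes and all lists were chosen with earlier results of these data known. Listed genes were named if called in at least 1 comparison, at most 6 per list, plus INSIG1 and SREBF1; the 6 genes most alike were taken by Pearson r. Alternatives were RLE and upper quartile scaling, no filter, a stricter one (1 CPM or more in 6 libraries or more), DESeq2 1.42.0, limma 3.58.1 voom with quality weights, no robust estimation, only the days compared, the replicate number as a block, and each library left out.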

Additional observations from a re-analysis of the deposited data

How the results depend on the processing

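No listed alternative reversed a called result. For day 16 against day 6 edgeR called 1427 genes and 3 of the 7; DESeq2 called 2235 genes, voom 3811 and a fit of only the 2 days 3092, and leaving out 1 library gave 664 to 3345 genes and 2 to 5 of the 7. For day 19 against day 16 edgeR called 193 genes and 1 of the 7. DESeq2 called 1680 genes and 3 of the 7, and voom 7354 and 3. A fit of only the 2 days called 0 genes and 0 of the 7, with 2726 genes at an unadjusted p under 0.05. With the replicate block edgeR called 0 genes and 0 of the 7, with 3572 at an unadjusted p under 0.05. Leaving out 1 library gave 0 to 7331 genes and 0 to 3 of the 7. For day 19 against day 6 edgeR called 3684 genes and 1 of the 7; voom called 9433 and 4, a fit of only the 2 days 2357 genes, and leaving out 1 library gave 1928 to 8891 genes and 1 to 3 of the 7. The cause of these shifts was not tested. The highest counts without 1 library were all those without day 19 replicate 1. No pairing by replicate number was seen: deviations of same-numbered libraries correlated at -0.164 to 0.153, and those of differently numbered ones at -0.134 to 0.2. These correlations cannot exclude a pairing. The replicate block gave 1100 genes for day 16 against day 6 and 2899 for day 19 against day 6. Among the named genes it ended the calls of TM7SF2 and SYVN1 for day 16 against day 6 (edgeR adjusted p = 0.0518 and 0.112), of HMGCS1 and ERLIN2 for day 19 against day 16 (0.0861 and 0.0886), and of ACAT1, HSD17B7, SCARB1 and LCAT for day 19 against day 6 (0.0656, 0.0909, 0.0513 and 0.0603). A search of promoters for the sterol regulatory element was not run, as no promoter sequence was used here. DHCR7, with 32 to 193 counts per library, was the least deeply measured of the 7.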
